A study of Mus musculus with 2 samples.

Results

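The genes described here encode RNA polymerase II (Pol II), the Mediator complex and the factors that hold the polymerase near the promoter and release it. They were chosen by symbol: Mediator subunits (Med followed by a digit), Pol II subunits (Polr2a to Polr2m), the NELF genes, Supt4a, Supt5 and Supt6, the Hexim genes, the T cyclins, the kinases Cdk7, Cdk8, Cdk9, Cdk12, Cdk13 and Cdk19, and Ell, Ell2, Aff1, Aff4, Larp7, Ccnh, Ccnc and Ccnk, each with a protein_coding transcript. The rule gave 68 members of the 55536 annotated genes in the deposited tables, of which 21901 had a protein_coding transcript. It matched 71 symbols, and the pseudogenes Polr2k-ps and Supt4b and the antisense gene Med9os, with 0 to 6 counts per library, were dropped for lack of such a transcript. Polyadenylated RNA was sequenced from primary macrophages that had been derived from bone marrow of C57BL/6J mice and exposed to a bacterial ligand at 100 ng/ml for 30 min. The free-text label names the ligand lipid A, the lipopolysaccharide anchor sensed by TLR4, whereas the treatment label names lipoprotein A and classes it as a protein. There were 2 libraries, biological replicates 1 and 2 of the same group, with separate biosample records and a shared donor record. No untreated cells were among the samples, so the values are levels at 30 min and show no response to the ligand.

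Pol II is recruited to promoters with the help of Mediator, a large complex with head, middle and tail modules and a detachable kinase module, which passes signals from enhancer-bound factors to the polymerase. Shortly after initiation the polymerase is often held in a paused state by NELF and DSIF. The kinase P-TEFb, which is CDK9 with a T cyclin, releases it by phosphorylating NELF, DSIF and the polymerase tail. P-TEFb is stored in an inactive complex with 7SK RNA, a HEXIM protein and LARP7, and acts in the super elongation complex on AFF scaffolds with ELL proteins. In macrophages, many immediate inflammatory genes are known to carry paused polymerase before a stimulus.

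The promoters of 6 members are shown first, because the levels and differences below turn on these genes: the catalytic subunit Polr2a, the pause-release kinase Cdk9, and Supt4a, Ccnt2, Hexim1 and Med21, which had the largest ratios of TPM between the libraries among members above 5 TPM in both. Each runs 5' to 3' from 150 bases before to 25 bases after the gene's start in RefSeq on GRCm38.p6. Capitals mark letter matches. On the sense strand the motif TATAAA was searched, and on both strands the motif GGGCGG (read as CCGCCC when it lies on the other strand), the motif CCGGAAG (read there as CTTCCGG), the motif GCATGCGC (read there as GCGCATGC) and the motif CCAAT (read there as ATTGG). In the Ccnt2 window 1 ATTGG and 1 GGGCGG overlap.
Polr2a, chr11:69758609-69758783, minus strand: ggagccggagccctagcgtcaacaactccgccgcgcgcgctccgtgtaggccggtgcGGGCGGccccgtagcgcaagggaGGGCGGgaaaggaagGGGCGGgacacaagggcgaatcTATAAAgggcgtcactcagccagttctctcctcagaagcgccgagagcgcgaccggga
Cdk9, chr2:32712760-32712934, minus strand: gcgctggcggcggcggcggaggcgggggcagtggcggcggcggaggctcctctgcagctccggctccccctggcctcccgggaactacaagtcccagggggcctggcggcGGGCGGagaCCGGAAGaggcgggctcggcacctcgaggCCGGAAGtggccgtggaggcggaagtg
Supt4a, chr11:87737401-87737575, plus strand: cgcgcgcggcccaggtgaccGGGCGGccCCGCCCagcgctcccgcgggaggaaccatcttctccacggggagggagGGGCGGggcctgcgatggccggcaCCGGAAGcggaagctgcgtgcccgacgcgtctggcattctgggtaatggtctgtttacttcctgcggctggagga
Ccnt2, chr1:127774014-127774188, plus strand: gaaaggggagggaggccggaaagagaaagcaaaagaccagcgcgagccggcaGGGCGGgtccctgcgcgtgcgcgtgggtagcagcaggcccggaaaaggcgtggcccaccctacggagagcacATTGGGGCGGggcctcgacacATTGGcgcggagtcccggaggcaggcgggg
Hexim1, chr11:103116175-103116349, plus strand: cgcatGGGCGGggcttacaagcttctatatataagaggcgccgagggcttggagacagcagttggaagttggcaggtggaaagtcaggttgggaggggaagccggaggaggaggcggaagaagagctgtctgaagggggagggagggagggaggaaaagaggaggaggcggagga
Med21, chr6:146642429-146642603, plus strand: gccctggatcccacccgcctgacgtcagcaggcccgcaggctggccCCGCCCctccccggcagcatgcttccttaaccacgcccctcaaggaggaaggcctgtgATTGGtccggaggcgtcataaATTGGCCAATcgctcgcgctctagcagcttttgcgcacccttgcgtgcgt
The Polr2a window held 1 TATAAA and 3 GGGCGG matches, and was the only one of these 6 with a TATAAA match. The Cdk9 window held 2 CCGGAAG matches, the Supt4a window 3 of GGGCGG or its reverse complement, and the Med21 window 3 of CCAAT or its reverse complement. The Hexim1 window had 7 CG dinucleotides, against 14 to 22 in the other 5. Gene starts in RefSeq can differ from those of the annotation behind the levels. In that annotation Hexim1 starts at 103116231, so most of its window lies inside the gene. Cdk9, on the minus strand, starts there at 32713076, so its whole window lies inside the gene. The longer Hexim1 promoter used next had 21 CG dinucleotides.

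Promoters of 250 bases before to 50 after the start were matched by symbol for 56 of the 68 members. They were rich in CG dinucleotides, with a median of 25.5 per promoter in members, 22 in the 8002 matched detected protein-coding genes and 7 in all 27025 promoters of the table. GGGCGG on either strand was in 42 member promoters (75.0%), against 66.1% of the detected genes and 35.9% of all promoters. CCGGAAG on either strand was in 15 (26.8%), against 21.1% and 9.12%, and GCATGCGC in 6 (10.7%), against 6.12% and 2.80%. CCAAT on either strand was in 20 (35.7%), against 39.1% and 37.9%, and TATAAA on the sense strand in 5 (8.93%), against 3.96% and 8.88%. These are letter matches and not binding sites.

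Nearly the whole machinery was expressed. Of the 68 members, 67 reached 1 TPM in each library (TPM is a level scaled to transcript length and to the library's total), against 45.5% of all genes with a protein_coding transcript. A level of 10 TPM in each library was reached by 51, against 62.7% of the 9968 detected protein-coding genes. The median member was at 16.3 TPM in replicate 1 and 17.1 TPM in replicate 2, or 16.7 ± 0.573 TPM (SD, n = 2), close to the median detected gene at 17.4 ± 1.22 TPM. Members lay in a narrower band, with quartiles of 11.3 and 33.7 TPM against 7.10 and 45.2 TPM for all detected genes. A level of 50 TPM in both libraries was reached by 12 members, against 20.7% of the detected genes. The exception to detection was Med12l, a vertebrate paralogue of the kinase-module subunit Med12, at 0.12 and 0.20 TPM in replicates 1 and 2, from 31.88 and 77 counts. The order of members was much the same in the libraries, with a Spearman rho of 0.954 over 68 genes, given as a description. As in the detected genes, where rho between transcript length and TPM was -0.21, longer members tended to be lower (-0.26).

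The libraries held 37784941 and 51904470 expected counts over genes in replicates 1 and 2, of which members took 94284 and 145685 (0.250% and 0.281%). A single ribosomal RNA gene took 10.9% of the counts of replicate 1 and 5.05% of those of replicate 2. All 10 macrophage markers exceeded 10 TPM in each library. Of 6 markers each, 1 T cell gene (Cd4) and 1 B cell gene (Cd79b) were detected, and no erythroid or stromal gene, with 5 of the 6 erythroid genes at 0. Of 10 neutrophil genes 4 were detected, and their summed level was 357 TPM in replicate 1 and 59.1 TPM in replicate 2. The 12 cell cycle genes summed to 561.7 and 326.1 TPM in replicates 1 and 2, and the 12 early inflammatory response genes to 4912 and 8296 TPM. In such bulk samples, fewer cells expressing a gene and less RNA per cell cannot be told apart.

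The 12 Pol II subunits were all detected, but their mRNA levels were far from equal, spanning 9.83-fold. Polr2a (ENSMUSG00000005198.15, chromosome 11, 69733997 to 69758637 on mm10), which encodes the largest, catalytic subunit with the phosphorylated tail, had 71.55 TPM in replicate 1 and 69.55 TPM in replicate 2. Its catalytic partner Polr2b had 25.23 and 24.16 TPM. The ratio of Polr2a to Polr2b was thus 2.84 in replicate 1 and 2.88 in replicate 2, although the polymerase holds a single copy of each. Among the subunits found only in Pol II, Polr2g, a stalk subunit, was highest at 80.04 and 84.77 TPM. Polr2j, of the assembly platform, had 56.22 and 66.50 TPM, and its platform partner Polr2c had 22.64 and 20.52 TPM. The other stalk subunit Polr2d was the lowest of them at 14.08 and 12.37 TPM, and Polr2i, known from yeast to aid proofreading, had 33.80 and 38.32 TPM. The subunits shared with polymerases I and III ranged widely. Polr2k had 82.72 and 75.79 TPM and Polr2f 52.93 and 55.96 TPM, whereas Polr2h had 8.77 and 9.84 TPM and Polr2l 8.26 and 8.51 TPM. Polr2e lay between, at 36.81 and 38.86 TPM. Polr2k, Polr2g and Polr2a, whose means were 79.25, 82.41 and 70.55 TPM, lay above every other subunit in both libraries, and their own order differed between the libraries. Polr2m, which encodes Gdown1, a Pol II-bound protein that makes initiation depend on Mediator, had 52.70 and 64.71 TPM.

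**Figure D1:**
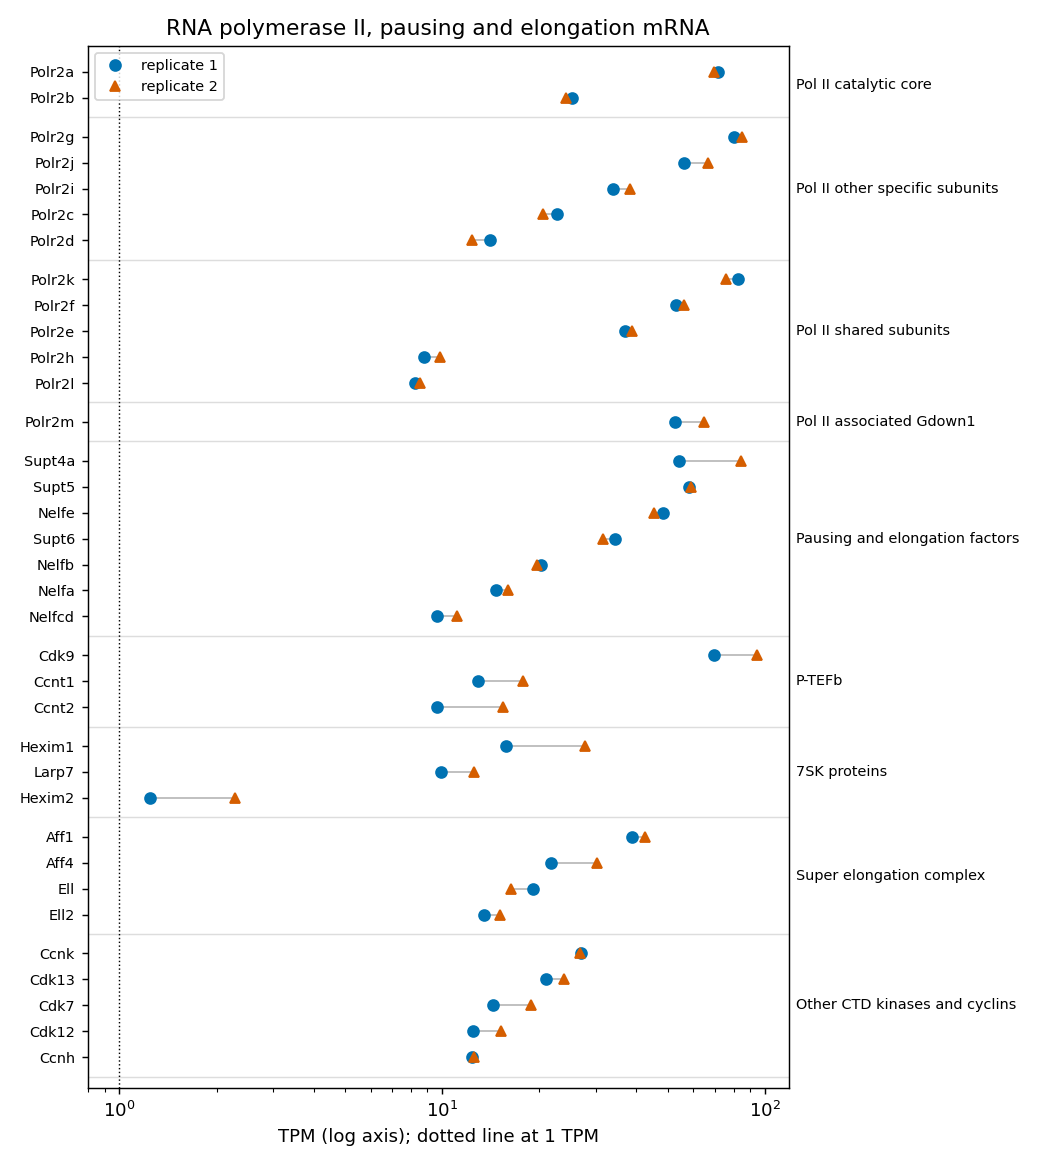
TPM (log axis) of the 35 members outside Mediator, by role, with replicate 1 as circles and replicate 2 as triangles joined by a line. Cdk9 (69.5 and 94.6 TPM), Polr2g (80.04 and 84.77) and Polr2k (82.72 and 75.79) lie at the right, and Hexim2 (1.24 and 2.28) at the left.

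Mediator subunits were lower than Pol II subunits in the median, at 14.3 TPM in each library for the 33 Mediator genes against 35.3 and 38.6 TPM for the 12 Pol II genes, and 32 of the 33 were detected. In the head module, which contacts the polymerase, Med8 stood at 59.91 and 54.52 TPM and Med11 at 25.93 and 29.35 TPM. Med18, another head subunit, was the lowest detected Mediator gene at 1.61 and 2.01 TPM, from 46 and 89 counts, and Med20, its partner in the head, was next lowest there at 9.76 and 9.30 TPM. The remaining head genes Med22, Med6 and Med17 had means of 24.35, 22.77 and 16.19 TPM. In the middle module, Med10 led at 44.65 and 46.05 TPM. Med21 had 16.87 TPM in replicate 1 and 35.27 TPM in replicate 2, the largest ratio between libraries of any member. Med31 had 3.88 and 4.34 TPM, and Med26, the subunit that docks elongation factors, was lowest at 3.81 and 3.55 TPM. Med1, the main contact of nuclear receptors, had 12.37 and 14.33 TPM, and Med7, Med19, Med4 and Med9 had means between 10.28 and 23.15 TPM.

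Med14, the scaffold that joins the modules, had only 5.59 and 7.59 TPM. Apart from Med18, Med26, Med31 and Med12l, every other Mediator gene was higher than Med14 in both libraries. In the tail, which receives activators, Med15 stood apart at 52.14 and 60.76 TPM. Med24 had 17.33 and 16.70 TPM, Med23, a target of MAP kinase signalling through Elk1, 10.79 and 11.85 TPM, and Med16 10.81 and 10.30 TPM. Med25, a target of several acidic activators, had 15.19 and 16.30 TPM. Of the 4 subunits that connect head and tail, Med28 was highest at 55.04 and 57.58 TPM. Med30 had 15.00 and 11.81 TPM, Med29 12.80 and 10.69 TPM, and Med27 8.48 and 10.23 TPM. In length-scaled mRNA, Med28 was therefore about level with Med8 and Med15, whose values overlap with its own across the libraries.

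The kinase module, which binds Mediator reversibly and blocks its contact with the polymerase, has paralogous genes for most of its parts. Med12 had 19.97 and 22.82 TPM, and the ratio of Med12 to Med12l was 166 in replicate 1 and 114 in replicate 2 (81.8 in the mean of the second deposited quantification). Med13 had 11.08 and 15.70 TPM and Med13l 8.80 and 12.18 TPM, a ratio of 1.26 and 1.29. The kinase Cdk8 had 9.19 and 12.95 TPM and its paralogue Cdk19 14.35 and 13.62 TPM. Over all transcripts Cdk19 was the higher of these 2 kinases in both libraries, with a Cdk8 to Cdk19 ratio of 0.640 in replicate 1 and 0.951 in replicate 2. In coding transcripts alone Cdk8 had 8.06 and 9.59 TPM and Cdk19 12.1 and 12.3 TPM. In the second quantification, where transcripts annotated for nonsense-mediated decay held 42.6% and 36.2% of Cdk19, the coding levels were 6.70 and 9.16 TPM for Cdk8 and 7.53 and 8.71 TPM for Cdk19, so the order of the coding transcripts is not settled in replicate 2. Their cyclin Ccnc had 9.19 and 11.25 TPM, or 0.390 and 0.423 of the 2 kinases together.

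**Figure D2:**
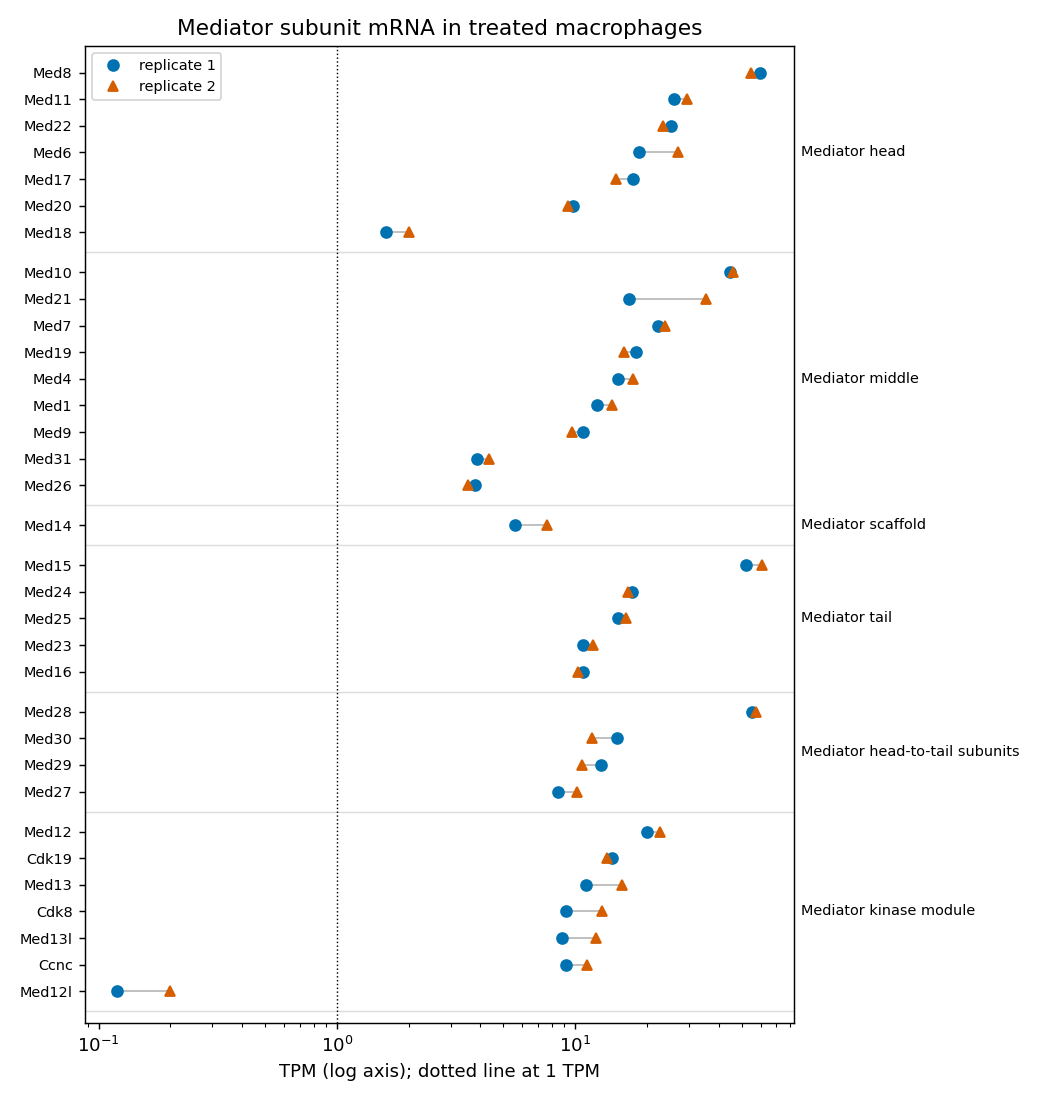
TPM (log axis) of the 33 Mediator genes by module, with replicate 1 as circles and replicate 2 as triangles joined by a line. Med8, Med10, Med15 and Med28 lie furthest to the right in both libraries, Med18 (1.61 and 2.01 TPM) is the lowest detected gene, and Med12l lies below the dotted line at 1 TPM.

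The pausing and elongation factors were among the higher groups, with a median of 34.3 TPM in replicate 1 and 31.5 TPM in replicate 2. The DSIF genes, Supt4a at 54.18 and 84.17 TPM and Supt5 at 58.10 and 59.03 TPM, exceeded each of the 4 NELF genes in both libraries. The order of Supt4a and Supt5 differed between the libraries, with a ratio of 0.933 in replicate 1 and 1.43 in replicate 2. NELF genes were unequal. Nelfe, which encodes the RNA-binding subunit, had 48.26 and 45.32 TPM, Nelfb 20.27 and 19.72 TPM, Nelfa 14.72 and 16.02 TPM, and Nelfcd 9.67 and 11.15 TPM. Supt6, a histone chaperone that travels with elongating polymerase, had 34.26 and 31.49 TPM.

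Cdk9 (ENSMUSG00000009555.16, chromosome 2, 32705784 to 32713076) had 69.50 TPM in replicate 1 and 94.60 TPM in replicate 2, the highest of the kinases. Its cyclins were much lower, Ccnt1 at 12.94 and 17.81 TPM and Ccnt2 at 9.67 and 15.41 TPM. The summed T cyclins were 0.325 of Cdk9 in replicate 1 and 0.351 in replicate 2. Hexim1, the inhibitor of P-TEFb, had 15.77 and 27.70 TPM, or 0.227 and 0.293 of Cdk9. Its neighbour and paralogue Hexim2, which starts at 103132429 on chromosome 11 while Hexim1 starts at 103116231, had 1.24 and 2.28 TPM, from 34 and 67 counts. Larp7, which binds and stabilises 7SK RNA, had 9.90 and 12.56 TPM. The 7SK RNA itself has no poly(A) tail and was not analysed here.

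In the super elongation complex, the scaffold Aff1 had 38.78 and 42.62 TPM and Aff4 21.71 and 30.24 TPM, a ratio of 1.79 in replicate 1 and 1.41 in replicate 2. The elongation factors Ell and Ell2 had 19.18 and 16.30 TPM and 13.47 and 15.12 TPM. Ell exceeded Ell2 by 1.42 and 1.08 times, but in the second quantification the ratio was 1.40 and 0.941, so replicate 2 does not settle their order. Over all transcripts the same held for Ccnt1 over Ccnt2, at 1.34 and 1.16 in the main tables and 1.21 and 0.976 in the second. In coding transcripts alone Ccnt1 was the higher in both libraries, at 10.9 and 14.1 TPM against 6.86 and 9.41 TPM. In the second quantification these coding levels were 9.13 and 12.9 TPM against 5.6 and 8.43 TPM. Of the other kinases of the polymerase tail, Cdk13 had 21.04 and 23.93 TPM and Cdk12 12.48 and 15.19 TPM, with their cyclin Ccnk at 26.84 and 26.75 TPM. The initiation kinase Cdk7 had 14.41 and 18.79 TPM and its cyclin Ccnh 12.33 and 12.57 TPM. Ccnk was thus the highest of this group in both libraries, and the spans within it were small, 2.18-fold in replicate 1 and 2.13-fold in replicate 2.

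The 2 libraries were compared to see how far these levels held between replicates. The test was an exact binomial test on rounded expected counts, scaled by edgeR's TMM and adjusted by Benjamini-Hochberg over 12266 genes. No conditions are compared by it. A small p-value says only that a difference between these samples exceeds counting noise, and the test does not include the spread between replicates. In all, 40 of the 68 members were called at an adjusted p of 0.05, against 63.2% of all genes tested. Of these, 21 were lower in replicate 1 (32.1% of all genes) and 19 higher in replicate 1 (31.1%). Scaled by total counts, which moves the median of all genes to -0.12 on the log2 scale, 28 were lower and 7 higher. Member differences were small. Their log2 ratios of replicate 1 to replicate 2 had an SD of 0.30, against 0.58 for all genes, and 4 were beyond 1.5-fold, against 21.1% of all genes. All 4 were lower in replicate 1, as were 13.1% of all genes, and 7.98% of all genes were beyond 1.5-fold in the other direction. The genes tested were not matched to the members in level. Of 71 other Pol II transcription genes tested, described below, 4 were also beyond 1.5-fold, so small differences were not particular to the members.

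Med21 had 236.06 counts in replicate 1 and 738.76 in replicate 2, a log2 ratio of -1.07 (exact binomial test, adjusted p = 8.63e-25). Hexim1 had 1273 and 3151 counts, a log2 ratio of -0.73 (exact binomial test, adjusted p = 7.89e-55). Ccnt2 had 950 and 2339 counts, a log2 ratio of -0.72 (exact binomial test, adjusted p = 3.25e-40). These 3 genes were lower in replicate 1, and kept that call, under each scaling, filter and quantification run. Exons of Med21 share 197 bases with Tm7sf3 on the opposite strand, which had 971 and 1240 counts, and the strand used in counting is not stated. Med12l, at -0.68 (exact binomial test, adjusted p = 0.0409), rested on few reads and was no longer called when low-count genes were kept in the test. By the ratio of TPM, Supt4a and Hexim2 also passed 1.5-fold, at 1.55 and 1.84 times higher in replicate 2. The largest ratio in the other direction was that of Med30, at 0.50 from 263 and 278 counts.

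Of the 10 genes of P-TEFb, the 7SK proteins and the super elongation complex, 8 were called lower in replicate 1, against 32.1% of all genes tested, 1 (Ell) was called higher and 1 (Hexim2) was not called. These roles were grouped with the results known. With TMM the pausing factors did not share this direction. Of the 4 NELF genes 0 were called lower and 2 higher, and 1 of the DSIF genes was lower (Supt4a, at -0.48). With total counts Nelfa at -0.15 and Supt5 at -0.06 were also called lower, and Nelfb was no longer called. This contrast thus depended on the scaling. For the 10 genes the counts were the same with total counts, with DESeq2 size factors and with no filter. In the second quantification 7 of the 10 were called lower, 1 higher and 2 neither. Among the 10 the log2 ratio of Cdk9 was -0.17, that of Ccnt1 -0.31, that of Larp7 -0.25 and that of Aff4 -0.52. Ell2 was at -0.13, Aff1 at only -0.06 and Ell at 0.34. Aff1, called from 7191 and 11134 counts, was not called in the second quantification. In the Mediator kinase module 6 of 7 were called lower in replicate 1, against 32.1% of all genes tested. They were Cdk8 at -0.45, Med13 at -0.40, Ccnc at -0.39, Med13l at -0.35, Med12 at -0.12 and the low-count gene Med12l at -0.68. Cdk19 was called higher at 0.15. With total counts those 6 were called again and Cdk19 was not. With no filter 5 were called lower, without Med12l. The scaffold gene Med14, at -0.29, was also lower in replicate 1.

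Of the 12 Pol II genes 0 were called lower in replicate 1, against 32.1% of all genes tested, and 5 were called higher, against 31.1% of all genes. The 5 were Polr2d at a log2 ratio of 0.37, Polr2k at 0.32, Polr2c at 0.25, Polr2b at 0.17 and Polr2a at 0.13. The calls depended on the scaling, since with total counts 1 was called higher (Polr2k), 1 lower (Polr2j) and 10 neither. None of the 5 tail genes of Mediator was called by this test, with log2 ratios between -0.04 and 0.07. With total counts, however, Med23 was called lower at -0.15 and Med15 at -0.07. Of the 4 head-to-tail genes, Med28, Med29 and Med30 were higher in replicate 1, at 0.14, 0.37 and 0.50, and Med28 was not called with total counts. Nelfe at 0.29, Supt6 at 0.20 and Nelfb at 0.15 were higher in replicate 1, the last of them not with total counts. The libraries also differed in other genes. Of the 12 early response genes 10 were called lower in replicate 1 and 2 higher, 11 of the 12 cell cycle genes were called higher in replicate 1, and 4 neutrophil genes were higher there. The part of these in the members' differences was not tested.

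**Figure D3:**
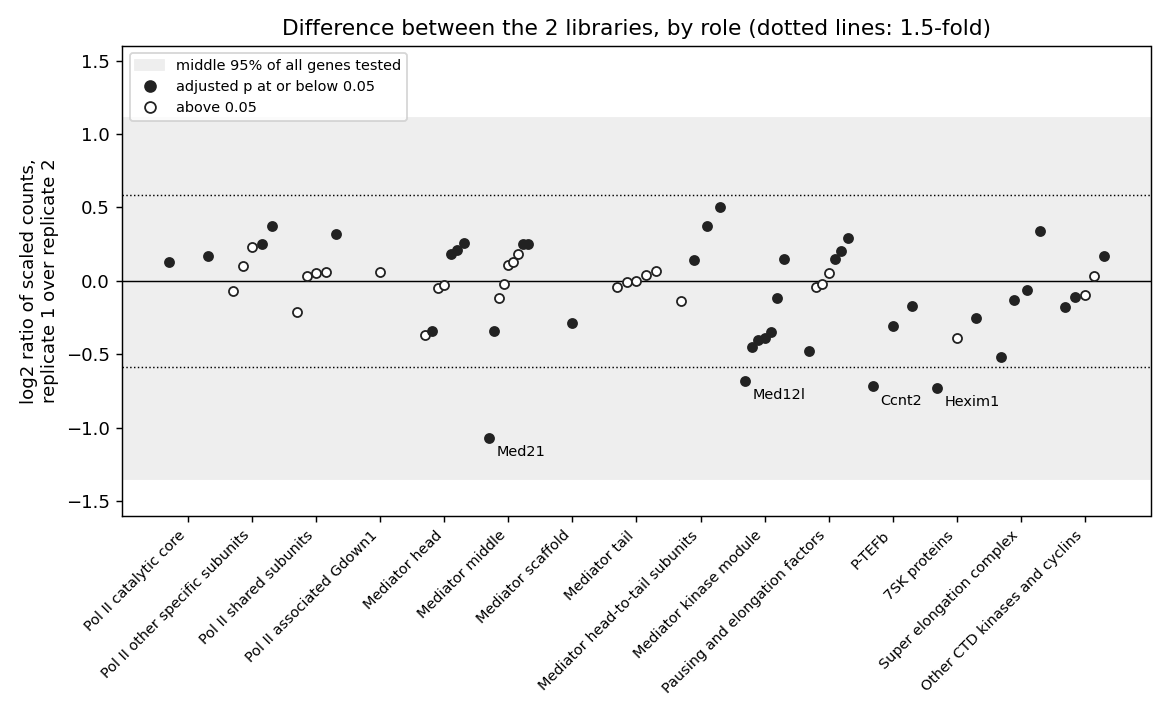
Log2 ratio of TMM-scaled counts, replicate 1 over replicate 2, for each member by role, with filled points called at an adjusted p of 0.05 and open points not called. The grey band is the middle 95% of all 12266 genes tested (-1.35 to 1.11), dotted lines mark 1.5-fold, and all members lie inside the band, with Med21 lowest at -1.07.

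Most members were read from a single dominant transcript. The leading transcript held a median of 91.1% of a member's TPM in replicate 1 and 87.3% in replicate 2, and was the same in both libraries for 65 of 68 members. In both quantifications of both libraries it was the same for 64, and held 50% or more for 57. Only 5 members, Hexim1, Med9, Med26, Med29 and Polr2l, had 1 annotated transcript, and Hexim1 has a single exon. Med28 was the member whose leading transcript, Med28-201, is annotated as a processed transcript and not as protein_coding. It held 63.0% and 56.5% of the TPM, so the high level of Med28 given above was mostly that transcript, and its coding transcripts held 36.3% and 43.5%.

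In 10 members the transcript ranked second held 20% or more in all 4 tables. Cdk8-205 held 36.8% and 30.4% of Cdk8, beside Cdk8-201 at 45.3% and 38.5%. Ccnc, the cyclin of the same module, was divided between Ccnc-203 at 55.1% and 41.1% and Ccnc-202 at 33.2% and 46.8%, and the order of these 2 coding transcripts differed between the libraries. In Polr2f, Polr2f-201 held 33.2% and 37.1% and Polr2f-205 held 32.8% and 33.9%, with a further 34.0% and 29.0% in transcripts annotated for nonsense-mediated decay. The second quantification divided it otherwise, with Polr2f-201 at 26.2% and 21.7% and Polr2f-205 at 45.2% and 62.1%. In the low-count gene Hexim2, Hexim2-201 held 52.4% and 32.0% and Hexim2-204 26.6% and 35.1%, whereas in the second quantification Hexim2-201 held 23.6% and 18.0% and Hexim2-204 27.6% and 43.4%. The others with 2 sizeable coding transcripts were Cdk13 (second transcript 23.0% and 23.9%), Med8 (30.6% and 29.5%), Med16 (28.5% and 39.9%) and Polr2i (28.8% and 25.4%). The remaining 2 were Med28, whose second transcript Med28-202 is coding and held 28.6% and 32.6%, and Nelfe, whose second transcript retains an intron and is described with that class. In Cdk9 the transcript Cdk9-208, annotated for nonsense-mediated decay, held 3.94% in replicate 1 and 18.7% in replicate 2 (5.62% and 23.1% in the second quantification). The coding transcripts of Cdk9 alone had 64.9 and 74.6 TPM, a ratio of replicate 2 to replicate 1 of 1.15.

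Transcripts annotated with a retained intron held 20% or more of the TPM in both libraries for 2 members, Nelfe and Ccnt2, against 5.01% of detected genes. Nelfe-207, which keeps intron sequence, held 34.1% of Nelfe in replicate 1 and 38.9% in replicate 2 (23.2% and 26.1% in the second quantification). Such transcripts held 23.0% and 23.2% of Ccnt2. Of the 42 detected members with an annotated retained-intron transcript, 35 had a higher share in replicate 2, 6 a lower one and 1 an equal one. That is 83.3% higher in replicate 2, against 67.6% of the 6204 detected genes with such a transcript. Most detected genes with such a transcript thus shared the direction. In the second quantification these percentages were 85.7% and 74.9%. Some members, such as Ccnk and Med31, had a share of 0 in replicate 1, the library with fewer counts. In Med21 the share was 1.90% in replicate 1 and 10.7% in replicate 2, but its coding transcripts alone also differed, at 16.2 and 30.4 TPM. In Ccnt2 the coding transcripts had 6.86 and 9.41 TPM, a ratio of replicate 2 to replicate 1 of 1.37. Of the 6 members with a lower share in replicate 2, Med25 had the largest difference, at 9.34% in replicate 1 and 2.58% in replicate 2 (8.13% and 6.64% in the second quantification). The other 5, Cdk9, Supt5, Supt6, Med23 and Med28, were below 2% in both libraries.

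**Figure D4:**
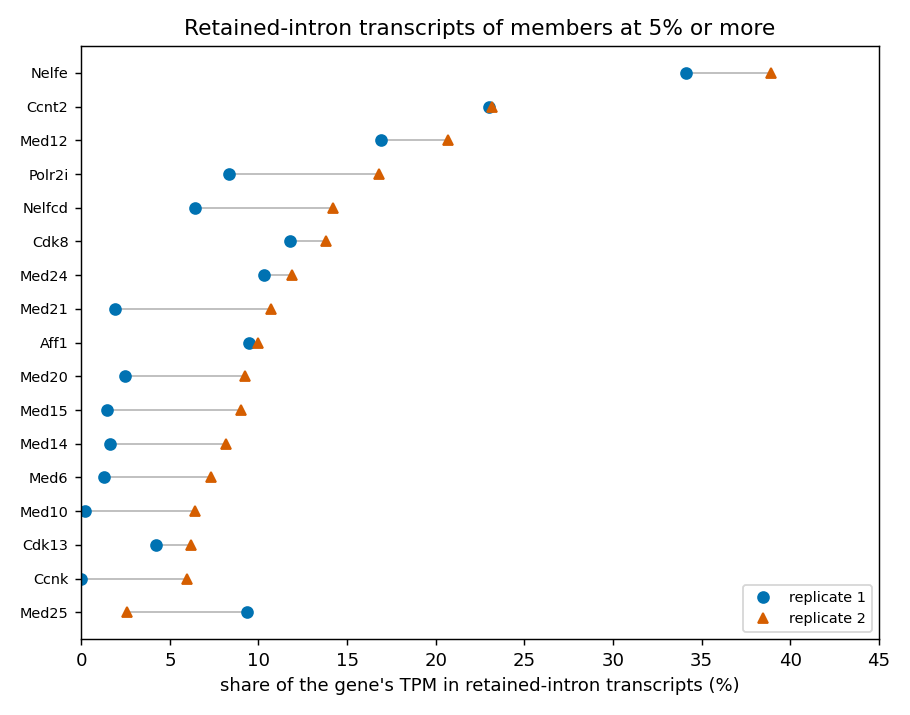
Share of TPM (%) in retained-intron transcripts for the 17 members at 5% or more in either library, with replicate 1 as circles and replicate 2 as triangles joined by a line. Nelfe is at the top (34.1% and 38.9%), and 16 of the 17 are higher in replicate 2, all but Med25.

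Exons of 32 members overlap exons of another annotated gene, 28 on the opposite strand and 6 on the same strand. In 19 members an expected count was not a whole number in at least 1 library (tolerance 1e-06). Examples of overlap on the opposite strand are Nelfcd, which shares 10 bases with the abundant Ctsz, Supt6, which shares 242 bases with Sdf2, and Med13, which shares 800 bases with Brip1os. Without a stated strand, reads of such bases cannot be told apart.

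Among 75 other genes of transcription by Pol II (general factors, TFIID, Integrator, PAF complex, bromodomain readers and further elongation factors), 70 were detected and 48 reached 10 TPM in each library. Brd2, a reader of acetylated histones, was highest at 145.0 and 184.0 TPM. Ssu72, a phosphatase of the polymerase tail, had 108.25 and 125.02 TPM. Mepce, which caps 7SK RNA, had 21.93 and 19.80 TPM, near Hexim1. The 5 genes not detected were Ell3 and Aff3, paralogues of members, and Eaf2, Tcea2 and Tcea3. Of the 71 tested, 43 were called between libraries, against 63.2% of all genes tested. Of these, 24 were lower in replicate 1 (32.1% of all genes) and 19 higher (31.1%). Beyond 1.5-fold were 4, against 21.1% of all genes tested. All 4 were lower in replicate 1: Taf9 at a log2 ratio of -1.09, Mllt3 at -0.87, Ints12 at -0.69 and Gtf2b at -0.67.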

How the data were processed

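Both libraries were polyadenylated RNA of the same treatment group (100 ng/ml, 30 min; starting amount 1 µg per the labels). Per the file headers, the deposited gene and transcript tables give expected counts, which are estimated reads and not normalized, and TPM, scaled by the authors to length and library; their layout is RSEM's. A second deposited set of transcript tables, in kallisto's layout, gives estimated counts and TPM, which were summed per gene. Per the labels the assembly was mm10, and the annotation was M21 per the deposited files. Which tools and versions were run, and the strand setting, is not stated in the sources used here.

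From these, expected counts were rounded, genes with low counts removed by filterByExpr, and libraries scaled by TMM in edgeR 4.0.16 (R 4.3.3). Entries that name no gene held 0.0891% and 0.0698% of counts and were left out. The common dispersion gave a biological coefficient of variation of 0.25 over 12266 genes. With 1 library on each side, edgeR's quasi-likelihood test has no residual degrees of freedom. An exact binomial test per gene (scipy 1.17.1) therefore compared each gene's counts with the libraries' scaled sizes. Its p-values were adjusted by Benjamini-Hochberg over all genes tested. It was tested on simulated counts that held only counting noise and set fold changes in some genes. Such counts cannot show how the test behaves at the coefficient of variation above. Log2 ratios add 0.5 to each count. Replicates have separate biosample records, and nothing says that they came from separate animals, so spreads may be technical. Depth was 37784941 and 51904470 counts, so 3 counts, the most that a count of 0 allows, are 0.0794 and 0.0578 CPM. Intervals and floors cover counting error only. DESeq2 1.42.0 size factors, total counts, no filter, the second quantification, other detection limits and leaving out a replicate were the alternatives.

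Genes named with both values were the 2 highest and 2 lowest of each role group, members below 1 TPM or beyond 1.5-fold, 8 paralogue pairs and members whose second transcript held 20% or more in all 4 tables; others are named in passing. Members, lists and roles were chosen with earlier results of these data known. Promoters came from RefSeq; motifs other than TATAAA, retained-intron shares and single-gene ratios such as T cyclins over Cdk9 were added after the files were seen. No protein sequence is printed.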

Additional observations from a re-analysis of the deposited data

How the results depend on the processing

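The count of detected members was 67 under each alternative except a limit of 5 TPM, which left 63. The median level of 16.7 TPM was 14.3 in the second quantification and, in an alternative chosen after seeing the data, 18.1 with TPM rescaled without the ribosomal RNA gene; without each replicate in turn it lay between 16.3 and 17.1. With total counts, 7 members were called higher in replicate 1, against 19 with TMM, and 80.0% of the calls were lower ones, against 52.5%. Of the 40 calls, 28 were made again with total counts, 40 with DESeq2 size factors, 39 with no filter and 37 in the second quantification. The log2 ratios of Med15 and Supt5, not called with TMM, turned to -0.07 and -0.06 with total counts, whose scaling shifts every gene downward. Both were then called lower in replicate 1. By ratio of TPM, 6 members passed 1.5-fold, against 4. The leading transcript's median share was 87.2% in the second quantification. The first gene was the higher in 6 of 8 paralogue pairs under each alternative, with the second quantification taken as a mean of the libraries. In replicate 2 of the second quantification alone, and over all transcripts, Ccnt1 over Ccnt2 was 0.976 and Ell over Ell2 was 0.941. No paired analysis was possible because the series holds a single group. Genes at few counts, such as Med12l and Hexim2, are limited by depth.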
